A study of Homo sapiens with 17 samples.

Results

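The genes described here are 10 immediate early genes of the AP-1 group and its neighbours: FOS, FOSB, FOSL1 and FOSL2 of the Fos family, JUN, JUNB and JUND of the Jun family, and EGR1, ATF3 and MAFF. They were chosen by symbol, with earlier results of these data known. Of the 10, 9 had a row among the 9699 transcripts of the deposited table, and FOSB had none. Transcript levels (RNA-Seq) and ribosome-protected fragments (Ribo-Seq, a readout of translation) were available for immortalized BJ cells, a line of human foreskin fibroblasts, in 5 states. The states were normal proliferation in serum, quiescence after serum depletion, pre-senescence at 5 days and full senescence at 14 days of a tamoxifen-inducible RASG12V, and transformation. For the RAS states the labels give cells with hTERT and the inducible RASG12V, kept in 4-OHT-Tamoxifen. The transformed cells carried hTERT, stable knockdowns that include p16INK4A, SV40 small T and a retroviral RASG12V. For the proliferating and quiescent cells the labels name no construct.

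AP-1 is a dimeric transcription factor. Jun proteins pair with each other or with Fos proteins through leucine zippers, whereas Fos proteins need a Jun partner to bind DNA. Serum and RAS signalling through ERK switch FOS and EGR1 on within minutes in fibroblasts. The signals act through serum response elements and cyclic AMP response elements in the promoters, and FOS and EGR1 messages decay as quickly. FOSL1 differs in that it is kept up by sustained ERK signalling. The values here are steady-state levels days after RAS induction or serum removal, not an acute time course.

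The table holds 6 RNA-Seq and 6 Ribo-Seq columns in FPKM (fragment counts scaled by transcript length and by library depth), with every value below 1 set to 1 by the authors. The first sequencing run contributed a control, quiescence and pre-senescence, and the second run a control, senescence and transformation. Of the 12 columns, 5 combine replicates (first-run control and quiescence in both assays, pre-senescence in RNA-Seq) and 7 are 1 library each, so no value has a replicate error and no difference was tested. The only repeat of a state is the control, and its fold between runs is given beside the members as a measure of spread that also contains the difference between runs, which were paired-end (first) and single-end (second) for RNA-Seq. Differences are log2 ratios to the control of the same run, and 2-fold is used as a mark of size only. The Ribo-Seq samples titled S and C3 carry condition fields that contradict their titles. The titles were followed, and each Ribo-Seq column correlated best with the RNA-Seq column of its own name (Spearman rho over genes from 0.842 to 0.881, 0.881 for senescence against 0.755 for its next best partner). The proliferation gene MKI67 was at the floor in both senescent columns and between 29.2 and 73.9 FPKM elsewhere. All 10 fibroblast markers examined had a row, with summed RNA from 5152 to 7937 FPKM. Of markers of other cell types, 1 of 5 epithelial (KRT19) and 2 of 4 leukocyte genes (CD14 and CD68, summed RNA 39.3 to 133 FPKM) had one, and 0 of the endothelial, skeletal muscle and melanocyte genes. KRT19 RNA ranged from the floor to 39.8 FPKM, highest in the second-run control, and its part in the differences from that control was not tested. CDKN2A RNA was 12.6 FPKM in transformed cells against 6.75 in the control of that run, but its single row does not separate p16INK4A from the overlapping ARF message and so does not check that knockdown. HRAS RNA was 2415, 1254 and 2102 FPKM in the first-run control, quiescence and pre-senescence. It was 1284, 2087 and 312 FPKM in the second-run control, senescence and transformation.

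Promoter windows from RefSeq (GRCh38.p14, 250 bases before to 50 after each start site) were found for 9 of the 10 members, with 2 windows each for ATF3 and MAFF. FOSL1 had none. They were searched on both strands for the CArG box, the core of the serum response element, for TGACGTCA, the full cyclic AMP response element, for TGACTCA, the AP-1 site, and for TGACG, which also lies inside the full element. Sequence beyond the windows was not searched, so a member without a match may have the element elsewhere. The CArG box was found in 1 member, EGR1, and in 1.29% of all 35116 windows. TGACGTCA was found in 2 members, JUND and MAFF (1.85% of all windows), TGACTCA in FOSL2 alone (4.95%) and TGACG in 8 members (24.6%). The stretches below come from some of the members with a match. EGR1 and FOS had the largest Ribo-Seq differences of pre-senescence. JUND and MAFF had RNA levels past 2-fold in other states and are the 2 members with TGACGTCA. ATF3 RNA was also past 2-fold, in senescence, but its 2 windows held no match and are not shown. Positions count from the start site, and capitals mark the matches. In EGR1 these are CArG boxes at -105 to -96 and -83 to -74 and TGACG on the opposite strand at -135 to -131 and -66 to -62. In FOS the capitals mark TGACG at -64 to -60, in JUND TGACGTCA at -200 to -193 and in MAFF TGACGTCA at -54 to -47. The coordinates are chr5:138465339-138465428 on the plus strand for EGR1, chr14:75278718-75278807 on the plus strand for FOS, chr19:18281763-18281852 on the minus strand for JUND and chr22:38201894-38201983 on the plus strand for MAFF, all upstream of the start site. A match is a run of letters and not evidence of binding.
EGR1: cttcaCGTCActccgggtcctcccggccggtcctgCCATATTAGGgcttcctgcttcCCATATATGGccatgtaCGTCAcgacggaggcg
FOS: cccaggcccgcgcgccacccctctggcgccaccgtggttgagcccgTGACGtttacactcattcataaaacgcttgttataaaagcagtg
JUND: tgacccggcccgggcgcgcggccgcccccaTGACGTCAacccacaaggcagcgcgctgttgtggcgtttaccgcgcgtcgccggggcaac
MAFF: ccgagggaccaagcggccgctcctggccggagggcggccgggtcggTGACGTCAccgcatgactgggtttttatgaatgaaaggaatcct

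FOSL1 (FRA1, ENST00000312562), a Fos protein without a transactivation domain, was the most abundant member at both layers in all 6 columns. In these bulk samples, fewer cells making a message and less message per cell cannot be told apart, here and below. Its RNA level was 258 FPKM in the first-run control, 172 in quiescence and 309 in pre-senescence, and 139.9 in the second-run control, 98.0 in senescence and 246 in transformation. Ribo-Seq levels in the same order were 289, 236, 262, 164, 75.4 and 255 FPKM. Senescent cells therefore had the lowest FOSL1 of the 6 at both layers. The controls differed by 1.85-fold in RNA and 1.76-fold in Ribo-Seq, and in the ranked levels only the step down to senescence in Ribo-Seq was wider than that.

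FOS (ENST00000303562), the prototype of the family, was at the other end of the scale. RNA was 1.52 FPKM in the first-run control, at the floor in quiescence and 2.98 in pre-senescence, and 5.83, 2.82 and 6.74 FPKM in the second-run control, senescence and transformation. In Ribo-Seq FOS was at the floor in the first-run control and in quiescence, at 5.42 FPKM in pre-senescence, and at 3.57, 1.67 and 4.26 FPKM in the second-run control, senescence and transformation. The controls differed by 3.84-fold in RNA, which is more than any step between neighbours in the ranked columns. FOSL2 (FRA2, ENST00000264716) lay between them and varied least in RNA, from 11.7 FPKM in pre-senescence to 21.9 in the first-run control. FOSL2 Ribo-Seq was 34.2 FPKM in the first-run control, 44.2 in quiescence and 15.4 in pre-senescence, and 31.5, 20.8 and 23.0 FPKM in the second-run control, senescence and transformation. Its controls were within 1.09-fold in Ribo-Seq.

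JUN (ENST00000371222), the partner of the classical heterodimer, had RNA levels of 61.4, 59.9 and 73.9 FPKM in the first-run control, quiescence and pre-senescence. They were 49.8, 38.0 and 68.5 FPKM in the second-run control, senescence and transformation. Ribo-Seq levels of JUN were 121, 169 and 153 FPKM in the first run and 82.1, 66.4 and 98.2 FPKM in the second. No JUN difference from its own control reached 2-fold at either layer.

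JUNB (ENST00000302754), a Jun protein that can oppose JUN in cell-cycle control, had RNA at 14.2, 22.3 and 24.8 FPKM in the first-run control, quiescence and pre-senescence, and 29.7, 27.7 and 57.5 FPKM in the second-run control, senescence and transformation. Its Ribo-Seq levels were 18.9, 49.1 and 43.9 FPKM in the first run and 29.3, 21.1 and 43.7 FPKM in the second. The first-run control was the lowest JUNB column at both layers, and the controls differed by 2.08-fold in RNA. JUND (ENST00000252818), the Jun protein associated with growth arrest, was at 31.2, 70.9 and 19.95 FPKM in RNA in the first run and at 32.2, 41.3 and 26.4 FPKM in the second. Its Ribo-Seq levels were 45.9, 116 and 34.95 FPKM in the first run and 53.7, 31.1 and 20.6 FPKM in the second. JUND controls were the closest of all members in RNA, within 1.03-fold, and quiescence stood highest at both layers.

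EGR1 (ENST00000239938), a zinc finger factor induced by serum alongside FOS, had RNA at 23.5, 17.7 and 53.8 FPKM in the first-run control, quiescence and pre-senescence, and 42.5, 24.3 and 65.6 FPKM in the second-run control, senescence and transformation. Its Ribo-Seq levels were 18.5, 22.6 and 98.4 FPKM in the first run, and 19.35, 5.22 and 13.3 FPKM in the second. The range from senescence to pre-senescence was 18.8-fold in Ribo-Seq, the widest of any member, while the controls were within 1.05-fold. The 2 ends of that range lie in different runs.

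ATF3 (ENST00000341491), a stress-induced bZIP repressor, was scarce in RNA except in senescence. The levels were 1.63, 2.25 and 2.13 FPKM in the first run and 2.29, 10.4 and 2.31 FPKM in the second-run control, senescence and transformation. Its Ribo-Seq levels did not follow that order, at 14.2, 6.13 and 3.99 FPKM in the first run and 5.60, 11.8 and 2.63 FPKM in the second, and the controls differed by 2.53-fold. MAFF (ENST00000338483), a small Maf protein that lacks a transactivation domain, had RNA at 14.6, 22.0 and 22.4 FPKM in the first run and 19.2, 40.7 and 39.0 FPKM in the second. MAFF Ribo-Seq was 40.5, 69.3 and 31.5 FPKM in the first run and 25.6, 30.0 and 39.0 FPKM in the second.

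**Figure D1:**
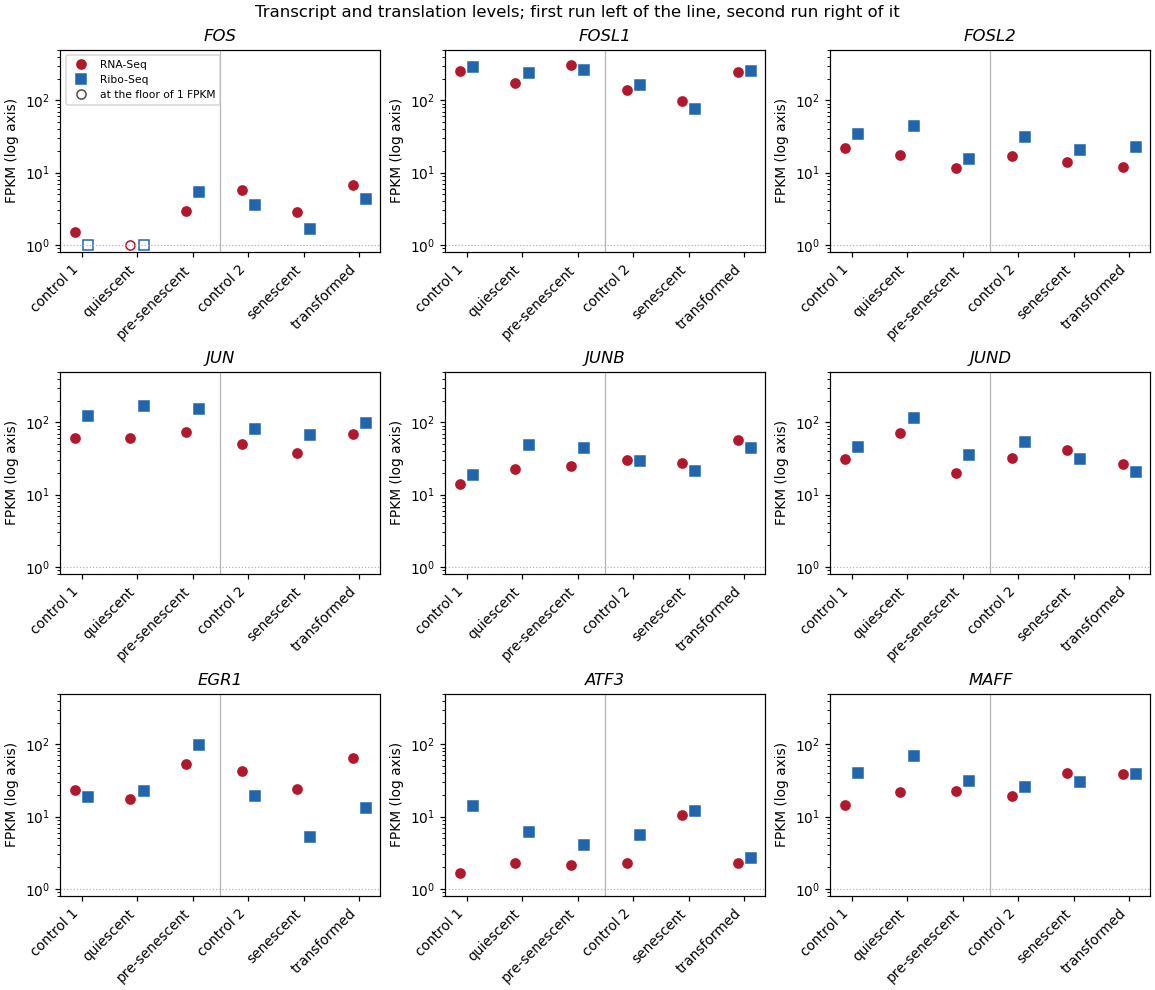
Level of each of the 9 members in FPKM on a log axis in the 6 columns of RNA-Seq (red circles) and Ribo-Seq (blue squares), with open symbols for values at the floor of 1 and a vertical line between the runs. FOSL1 sits between 75.4 and 309 FPKM everywhere, FOS between 1 and 6.74, and EGR1 Ribo-Seq reaches 98.4 in pre-senescence and 5.22 in senescence.

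FPKM is scaled by length, so the makeup of each family could be compared between genes. FOSL1 made up 85.2% to 95.5% of the summed RNA of FOS, FOSL1 and FOSL2 and 77.0% to 92.7% of their Ribo-Seq. The lowest share was the senescent one at both layers and the highest the pre-senescent one. FOS never exceeded 3.58% of the family in RNA or 1.92% in Ribo-Seq, values at the floor counted as 1. FOSL2 made up the rest and reached 21.3% of Ribo-Seq in senescence, against 15.8% in the control of that run.

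The Jun family was more even. JUND was 46.3% of Jun RNA in quiescence against 29.2% in its control, and 38.6% in senescence against 28.8%. In pre-senescence and transformation it was 16.8% and 17.3%. JUN made up the largest share of Jun Ribo-Seq in every column, from 49.8% in the second-run control to 66.0% in pre-senescence. JUNB reached its highest share in transformation, with 37.7% of RNA and 26.9% of Ribo-Seq. The summed Fos to Jun ratio of Ribo-Seq was 0.841 in quiescence and 0.826 in senescence, the only columns below 1, against 1.75 and 1.21 in their controls, 1.22 in pre-senescence and 1.74 in transformation. In RNA every column was above 1. There the ratio was 1.24 in quiescence and 1.07 in senescence, against 2.63 and 1.46 in their controls, 2.73 in pre-senescence and 1.74 in transformation.

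**Figure D2:**
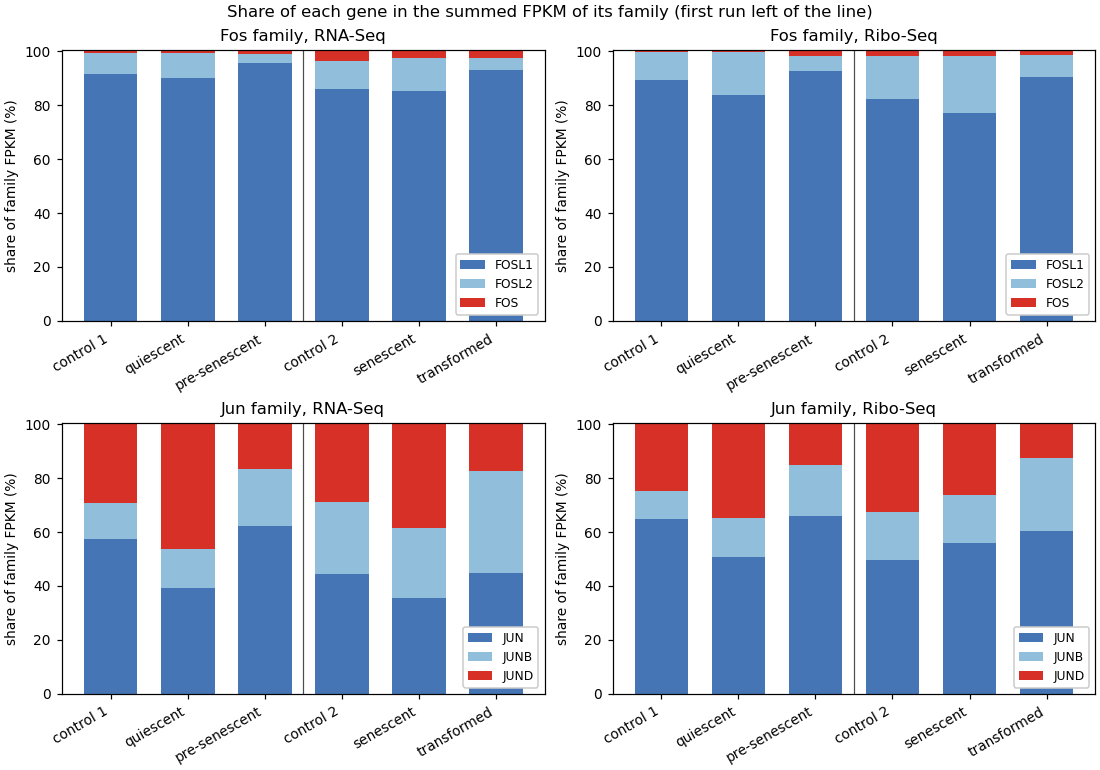
Stacked bars of each gene's share (%) of the summed FPKM of its family in each column, RNA-Seq left and Ribo-Seq right, with the first run left of the line in each panel. FOSL1 fills 77.0% or more of every Fos bar, and the JUND segment of Jun RNA is 46.3% in quiescence and 16.8% in pre-senescence.

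In quiescence, the comparison asks how serum removal changed the program. JUND was the member with the largest RNA difference, 2.27-fold higher than in control (31.2 to 70.9 FPKM) and 2.53-fold higher in Ribo-Seq. JUNB was 1.57-fold higher in RNA and 2.59-fold higher in Ribo-Seq, and ATF3 Ribo-Seq was 2.31-fold lower. FOSL1 RNA was 1.5-fold lower and EGR1 RNA 1.32-fold lower. Of 9 members, 1 was past 2-fold higher in RNA (4.11% of all transcripts compared) and 0 were lower (2.43%). Of the 8 with a Ribo-Seq value above the floor, 2 were higher (9.31%) and 1 was lower (8.2%). Set against the second-run control, JUNB Ribo-Seq differed by 0.74 and ATF3 Ribo-Seq by 0.13 on the log2 scale, so of these 3 genes JUND alone was past 2-fold against both controls. FOSL1 and JUNB RNA changed sign there, to 0.30 and -0.41.

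In pre-senescence, after 5 days of RAS, EGR1, FOS and JUNB were higher in Ribo-Seq and FOSL2 and ATF3 were lower. EGR1 was 2.30-fold higher in RNA (23.5 to 53.8 FPKM) and 5.32-fold higher in Ribo-Seq (18.5 to 98.4 FPKM). FOS was 1.96-fold higher in RNA and at least 5.42-fold higher in Ribo-Seq, where the control was at the floor. JUNB was 1.74-fold and 2.32-fold higher. FOSL2 was 1.87-fold lower in RNA and 2.22-fold lower in Ribo-Seq, and ATF3 Ribo-Seq was 3.55-fold lower. FOSL1 differed by at most 1.2-fold at either layer. In RNA, 1 member was past 2-fold higher (1.82% of all transcripts) and 0 were lower (2.05%), and in Ribo-Seq 3 were higher (7.31%) and 2 lower (10.6%). The median over all transcripts was itself shifted by -0.12 on the log2 scale in Ribo-Seq. Against the second-run control EGR1 Ribo-Seq remained past 2-fold, whereas EGR1 RNA differed by 0.34 and FOS Ribo-Seq by 0.60 on the log2 scale, and the count in Ribo-Seq was 2, EGR1 and FOSL2. FOS and JUNB RNA changed sign there, to -0.97 and -0.26.

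In senescence, at 14 days of RAS, ATF3 and MAFF RNA were higher while FOS, FOSL1 and EGR1 were lower. ATF3 RNA was 4.56-fold higher (2.29 to 10.4 FPKM) and its Ribo-Seq 2.10-fold higher, and MAFF RNA was 2.12-fold higher with Ribo-Seq 1.17-fold higher. EGR1 Ribo-Seq was 3.71-fold lower (19.35 to 5.22 FPKM) with RNA 1.75-fold lower. FOSL1 was 1.43-fold lower in RNA and 2.18-fold lower in Ribo-Seq, and FOS was 2.07-fold and 2.14-fold lower, from a control of 5.83 FPKM in RNA and 3.57 in Ribo-Seq. In RNA, 2 members were past 2-fold higher (7.19% of all transcripts) and 1 was lower (13.2%). In Ribo-Seq 1 was higher (11.2%) and 3 were lower (16.8%), and the all-transcript median was -0.12. With a pseudocount of 1 FPKM, FOS no longer reached 2-fold at either layer and ATF3 no longer did in Ribo-Seq, where the count became 2. Against the first-run control FOS differed the other way, by 0.89 in RNA and 0.74 in Ribo-Seq, and ATF3 Ribo-Seq by -0.27 on the log2 scale, as did MAFF Ribo-Seq, by -0.43.

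In transformation, RAS acted in cells with these knockdowns and SV40 small T, and most members were higher in RNA than in control. MAFF was 2.03-fold higher, JUNB 1.94-fold, FOSL1 1.76-fold and EGR1 1.54-fold. In Ribo-Seq the same genes were 1.53-fold, 1.49-fold and 1.55-fold higher for MAFF, JUNB and FOSL1, and 1.45-fold lower for EGR1. JUND Ribo-Seq was 2.61-fold lower and ATF3 Ribo-Seq 2.13-fold lower. In RNA, 7 of 9 members were above control, ATF3 by only 0.01, with a median of 0.46 on the log2 scale beside 0.09 over all transcripts. Between the controls, second against first run, 6 of 9 members were higher in RNA, with a median of 0.40 beside -0.06. In transformation RNA, 1 member was past 2-fold higher (4.97% of all transcripts), and 0 were past 2-fold lower (5.39%). In Ribo-Seq 0 were past 2-fold higher (5.34%) and 2 were lower (7.44%). MAFF RNA no longer reached 2-fold with a pseudocount of 1 FPKM or once the median of all transcripts was subtracted (0.93 on the log2 scale), nor ATF3 Ribo-Seq with the pseudocount. Against the first-run control FOSL1 differed by -0.07 in RNA and -0.18 in Ribo-Seq, and MAFF by -0.05 in Ribo-Seq.

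**Figure D3:**
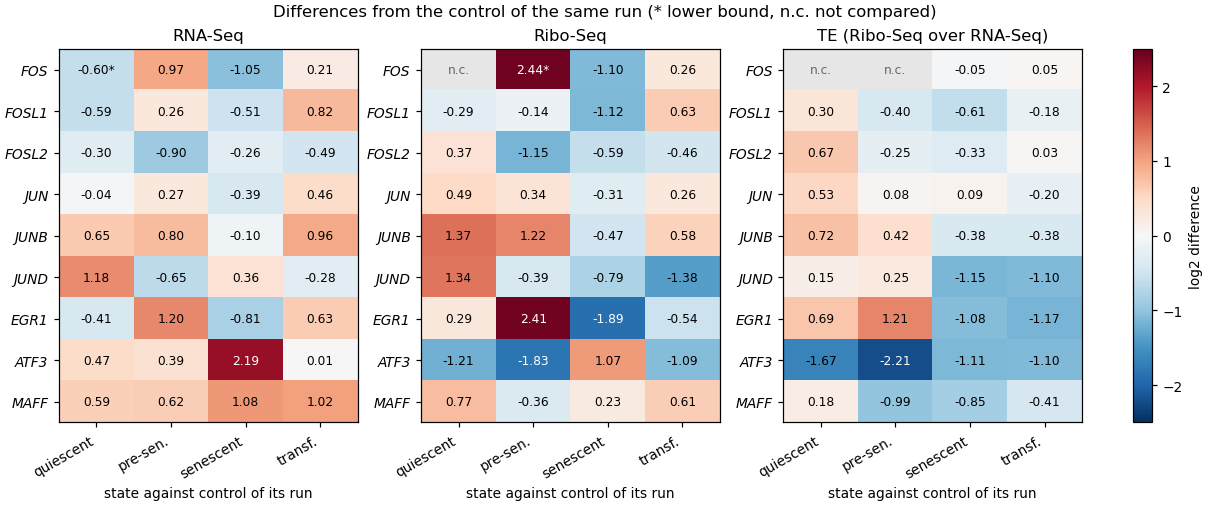
Log2 difference of each member from the control of its own run in RNA-Seq, Ribo-Seq and translation efficiency (TE), red for higher and blue for lower. The darkest Ribo-Seq cells are FOS (at least 2.44) and EGR1 (2.41) in pre-senescence, and in TE the ATF3 row is blue in all 4 states.

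The control columns themselves differed. Between the second and the first run, 2 of 9 members were past 2-fold in RNA (7.97% of all transcripts in either direction), FOS and JUNB, both higher in the second. In Ribo-Seq these were FOS, at least 3.57-fold higher, and ATF3, 2.53-fold lower (18.9%), and in TE ATF3 and MAFF, 2 of 8 members (8.51%).

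Senescent and transformed cells share RASG12V and a sequencing run, so they were also set against each other directly, a comparison added after the values were seen. ATF3 was 4.52-fold higher in senescence in RNA and 4.48-fold higher in Ribo-Seq. FOSL1 was 2.52-fold lower in RNA and 3.38-fold lower in Ribo-Seq, EGR1 2.70-fold and 2.55-fold lower, FOS 2.39-fold and 2.55-fold lower and JUNB 2.08-fold lower at both layers. JUND was 1.56-fold and 1.51-fold higher. At each layer 5 of 9 members were past 2-fold, set beside 23.5% of all transcripts in RNA and 30.3% in Ribo-Seq. No member differed past 2-fold in TE, where the range was -0.44 to 0.29 on the log2 scale. JUNB dropped just under 2-fold at both layers when the all-transcript median was subtracted. The RAS constructs, the stable knockdowns and SV40 small T also differ between these cells and cannot be told apart here. No duration of RAS is given for the transformed cells, so it may differ too.

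**Figure D4:**
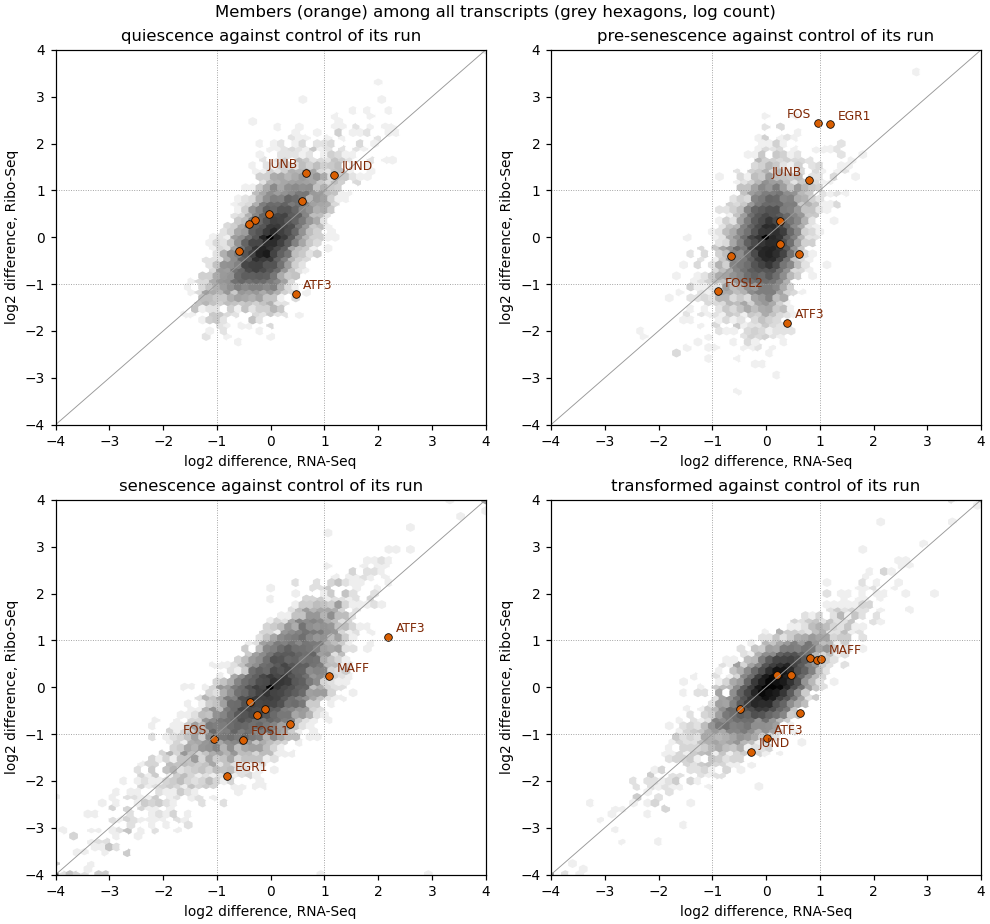
Log2 difference from the control of the same run in RNA-Seq (x) against Ribo-Seq (y) for all transcripts (grey hexagons, values beyond 4 drawn at the edge) and the compared members (orange, named where past 2-fold at either layer), with a diagonal for equal differences and dotted lines at 2-fold. EGR1 and FOS lie far above the diagonal in pre-senescence, while ATF3 and EGR1 lie below it in senescence, and JUND and ATF3 in transformation.

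TE, the log2 ratio of Ribo-Seq to RNA-Seq FPKM, had its widest range over the columns in EGR1. EGR1 TE was -0.34 in the first-run control, 0.35 in quiescence and 0.87 in pre-senescence, and -1.13 in the second-run control, -2.22 in senescence and -2.30 in transformation. Transformed cells thus had the highest EGR1 RNA of the 6 columns with the lowest EGR1 TE. JUND TE was 0.56, 0.71 and 0.81 in the first run, and 0.74 in the second-run control compared with -0.41 in senescence and -0.36 in transformation. ATF3 TE was 3.12 in the first-run control and 1.29 in the second, and below its control in all 4 states, with RNA of at most 2.31 FPKM outside senescence, close to the floor. JUN TE stayed between 0.52 and 1.5.

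By state, the members past 2-fold in TE were 1 of 8 in quiescence (7.06% of all transcripts in either direction), ATF3, which was 3.19-fold lower. In pre-senescence they were 2 of 8 (13.2%), EGR1 at 2.32-fold higher and ATF3 at 4.64-fold lower. In senescence JUND, EGR1 and ATF3, 3 of 9, were lower by 2.12-fold to 2.22-fold (8.55%), and 8 of 9 members had TE below control with a median of -0.61 beside -0.04 over all transcripts. In transformation the same 3 genes were lower by 2.14-fold to 2.25-fold, where 2.69% of all transcripts were past 2-fold. Quiescence ran the other way, with 7 of 8 members above control and a median of 0.41 beside -0.07. Between the controls, second against first run, 5 of 8 members had lower TE, with a median of -0.34 beside 0.02. In senescence FOS counted as below control at -0.05, and it was at 0.06 with a pseudocount of 1 FPKM. With a pseudocount of 1 FPKM only JUND stayed past 2-fold in senescence, and JUND and EGR1 did in transformation. Against the first-run control the JUND difference was -0.97 in senescence and -0.92 in transformation. Senescence and transformation share the second-run control, so their differences from it are not independent. Set directly against each other, senescence differed from transformation in TE by -0.05 for JUND, 0.08 for EGR1 and -0.01 for ATF3.

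Related genes were followed with 4 lists, chosen, like the members, with earlier results of these data known. Of all transcripts, the shares past 2-fold higher and lower in RNA were 4.11% and 2.43% in quiescence and 1.82% and 2.05% in pre-senescence. They were 7.19% and 13.2% in senescence and 4.97% and 5.39% in transformation. In Ribo-Seq these shares were 9.31% and 8.2%, 7.31% and 10.6%, 11.2% and 16.8%, and 5.34% and 7.44%. Of 33 other immediate early genes, 25 had a row. In RNA, 2 were past 2-fold higher and 3 lower in quiescence, 2 and 1 in pre-senescence, 4 and 7 in senescence, and 3 and 4 in transformation, with medians of 0.19, 0.30, -0.12 and 0.39 beside all-transcript medians of -0.01, 0.04, -0.02 and 0.09. In Ribo-Seq the counts were 5 and 1, 2 and 2, 4 and 5, and 2 and 5. PTGS2 (cyclooxygenase 2) went from 19.6 FPKM of RNA to 69.1 in quiescence. TRIB1, a pseudokinase, was past 2-fold higher at both layers in quiescence, pre-senescence and transformation, with RNA of 7.18, 9.91 and 13.5 FPKM against 3.0 FPKM in the first-run and 5.28 in the second-run control. PHLDA1 RNA was 189 FPKM in pre-senescence against 70.7, and 139 in transformation against 34.4. In senescence LIF, a cytokine of the interleukin 6 family, was at 9.35 FPKM with its control at the floor, and KLF2 was 1.02 against 7.39. In transformation BTG2, an antiproliferative gene, was 1.05 against 4.52 FPKM and DUSP1, a phosphatase of MAP kinases, 51.8 against 113.

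Of 23 other bZIP genes, potential partners or competitors, 18 had a row. Counts in this paragraph stand beside the all-transcript shares given above. RNA counts past 2-fold were 1 higher and 0 lower in quiescence, 0 and 2 in pre-senescence, 4 and 2 in senescence and 1 and 1 in transformation, and Ribo-Seq counts were 4 and 1, 1 and 3, 3 and 3, and 1 and 2. JDP2, a repressor that dimerizes with JUN, was lower at both layers in pre-senescence and senescence, with RNA of 8.23 against 20.8 FPKM at 5 days and 4.62 against 13.8 at 14 days. MAF was at 4.57 FPKM in quiescence with its control at the floor, and at the floor in senescence and transformation against 2.80. DDIT3 (CHOP) was 37.5 against 12.3 FPKM in senescence. Of 19 upstream regulators, 18 had a row, and in RNA 0 were past 2-fold in quiescence, pre-senescence or transformation and 2 were lower in senescence. Ribo-Seq counts were 2 and 1, 2 and 1, 0 and 3, and 2 and 1. NAB2, a corepressor of EGR1 and also one of its targets, was the regulator past 2-fold lower at both layers in senescence, at 12.7 against 31.4 FPKM of RNA and 16.4 against 43.9 of Ribo-Seq.

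Of 15 textbook AP-1 targets, 14 had a row. Their RNA median difference was 0.01 in quiescence, 0.74 in pre-senescence, 1.05 in senescence and 0.89 in transformation. The all-transcript medians in the same order were -0.009, 0.037, -0.015 and 0.09. All-transcript shares past 2-fold higher and lower were 4.11% and 2.43%, 1.82% and 2.05%, 7.19% and 13.2%, and 4.97% and 5.39% in RNA. In Ribo-Seq they were 9.31% and 8.2%, 7.31% and 10.6%, 11.2% and 16.8%, and 5.34% and 7.44%. Past 2-fold in RNA were 1 higher and 2 lower in quiescence, 5 and 1 in pre-senescence, 8 and 2 in senescence and 6 and 3 in transformation, and in Ribo-Seq 2 and 2, 5 and 1, 7 and 2, and 7 and 3. The collagenase MMP1 went from 1289 to 7186 FPKM of RNA in pre-senescence. The stromelysin MMP3 went from 399 to 2190 in pre-senescence and from 43.4 to 982 in senescence. In quiescence it was at 120.0 FPKM, below the first-run control of 399 but above the second-run control of 43.4. IL8 was 127 FPKM in senescence and 231 in transformation against 4.90. The urokinase PLAU was 1564 against 70.3 in transformation, and the chemokine CCL2 was past 2-fold lower in RNA in all 4 states, for example 7.51 against 55.5 in pre-senescence.

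The transcripts whose RNA pattern over the 6 columns was most like that of FOSL1, among 4194 with a log2 range of at least 1 and at least 5 FPKM in 1 column, were C10orf2, TFAM and DUSP12, with Pearson r of 0.992, 0.991 and 0.991. In Ribo-Seq the same pairs gave 0.771, 0.798 and 0.933. For FOS they were C2orf43, CD274 and CDKN2AIP (0.971, 0.936 and 0.932 in RNA, 0.074, 0.580 and 0.374 in Ribo-Seq), and for EGR1 PLEK2, TTF1 and PRPF4 (0.970, 0.966 and 0.944 in RNA, 0.135, 0.136 and 0.491 in Ribo-Seq). The 6 points share runs and, in part, combined replicates, so these values are descriptions of likeness only. Within a member, RNA and Ribo-Seq levels over the same 6 columns gave r of 0.907 for FOSL1, 0.344 for EGR1, 0.333 for ATF3 and -0.13 for MAFF.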

How the data were processed

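Transcript levels by RNA-Seq and translation levels by Ribo-Seq were taken from 1 deposited table covering 17 samples of BJ cells in 12 columns. The authors aligned reads to 1 protein-coding transcript per gene with Bowtie (version not given in the sources used here, build hg19 in the submitters' processing notes, Ensembl transcripts), kept uniquely mapped reads and computed FPKM over the whole transcript for RNA-Seq and over the coding sequence for Ribo-Seq. They set FPKM below 1 to 1, and the table holds no read counts. The study lists reads per library, which were not used here, so no depth is given and no counting interval was computed. How replicates were combined in 5 columns is not given in the sources used here. The study analysed transcripts that reached a minimum of reads in both assays in at least 1 condition, so a missing row is not a level of 0.

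Log2 differences were taken against the control of the same run, as the study did, without a pseudocount. A transcript was compared if at least 1 of the 2 columns was above 1 FPKM, and for TE if all 4 values were. All 12 columns were used, and none belongs to another series. With 1 column per state there was no test: members are described by their values, by the count past 2-fold and by the share of all transcripts past 2-fold. Named genes were the members, for each list up to 4 genes per state with the largest RNA difference among those past 2-fold the same way at both layers, and the 3 transcripts most correlated with FOS, FOSL1 and EGR1. The members and lists were chosen with earlier results of these data known. The alternatives were a pseudocount of 1 FPKM, a minimum of 5 FPKM, no filter, median-centring and the control of the other run. Calculations used Python 3.11.15, pandas 2.3.3 and numpy 2.4.6, tested on simulated data. The check of 1 knockdown target of the transformed cells is not reported here.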

Additional observations from a re-analysis of the deposited data

Results flagged for a closer look

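Opposite differences past 2-fold were seen in 2 settings that share RASG12V, namely 5 against 14 days and senescence against transformation. None of these contrasts was tested, and the 2 time points lie in different sequencing runs, which cannot be told apart from time. EGR1 Ribo-Seq was 2.41 above control on the log2 scale in pre-senescence and -1.89 in senescence, a gap of 4.30. EGR1 TE was 1.21 and -1.08, a gap of 2.30. FOS Ribo-Seq was at least 2.44 and then -1.10, a gap of at least 3.53, at levels of at most 5.42 FPKM. ATF3 Ribo-Seq went the other way, -1.83 and then 1.07, a gap of -2.90. Set against the control of the other run, EGR1 kept both signs (2.35 and -1.82 in Ribo-Seq), whereas FOS (0.60 and 0.74) and ATF3 (-0.49 and -0.27) had the same sign at both times. Within the second run, ATF3 Ribo-Seq was 1.07 above control in senescence and -1.09 in transformation, a gap of 2.16. Against the first-run control these were -0.27 and -2.43.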

How the results depend on the processing

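No paired analysis was possible because the table holds 1 column per state and run, with replicates 1 and 2 already combined, and for the same reason no replicate could be left out. Differences of single members kept their sign and their side of 2-fold in 120 of 132 cases with a pseudocount of 1 FPKM. They did so in 126 of 132 after median-centring and in 52 of 103 against the control of the other run. A minimum of 5 FPKM and the absence of a filter only select which differences are compared. The 116 and 132 cases compared there kept their values by construction, which says nothing about robustness. All settings but the control of the other run include senescence against transformation, a comparison added after seeing the data. The sign changed in 27 cases against the control of the other run, in 3 with the pseudocount and in 2 after median-centring, mostly for differences under 2-fold.

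Against the control of the other run, the members past 2-fold numbered 3 in place of 1 in quiescence RNA, 3 in place of 1 in quiescence TE, 2 in place of 5 in pre-senescence Ribo-Seq, 2 in place of 4 in senescence Ribo-Seq, 4 in place of 1 in transformation RNA and 4 in place of 2 in transformation Ribo-Seq. In quiescence Ribo-Seq they numbered 4 in place of 3. Among differences past 2-fold, the sign changed there for ATF3 in quiescence (0.13 in Ribo-Seq and 0.16 in TE), for FOS in senescence (0.89 in RNA and 0.74 in Ribo-Seq) and for ATF3 Ribo-Seq in senescence (-0.27). With a pseudocount of 1 FPKM the counts were 2 in place of 4 in senescence Ribo-Seq, 1 in place of 3 in senescence TE, 0 in place of 1 in transformation RNA and 1 in place of 2 in transformation Ribo-Seq. They were 2 in place of 3 in senescence RNA and in transformation TE. With a minimum of 5 FPKM they were 0 in place of 1 in quiescence TE and 1 in place of 2 in pre-senescence TE. In TE of senescence and of transformation they were 2 in place of 3. In each of these ATF3 was no longer compared. Senescence Ribo-Seq, without FOS, was 3 in place of 4. After median-centring the count was 0 in place of 1 in transformation RNA and 3 in place of 4 in senescence Ribo-Seq. Without a filter it was 3 in place of 2 in pre-senescence TE. For senescence against transformation the Ribo-Seq count was 4 in place of 5 with the pseudocount, the minimum or median-centring. The RNA count was 4 in place of 5 after median-centring. Apart from the minimum of 5 FPKM, the cause was not tested. FOS RNA, and ATF3 RNA outside senescence, lie within a few FPKM of the floor, which limits what can be said of either.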
